A study of Mus musculus with 6 samples.

Results

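The miR-181 family was followed across small RNA libraries of N2a cells, a mouse neuroblastoma line, given RSL3 or its solvent DMSO. Members were all listed entries, of either arm, whose name stem was miR-181a, miR-181b, miR-181c or miR-181d, with or without a copy number. This gave 7 of the 685 mature miRNAs listed: mmu-miR-181a-5p, mmu-miR-181b-5p, mmu-miR-181c-5p, mmu-miR-181d-5p, mmu-miR-181a-1-3p, mmu-miR-181a-2-3p and mmu-miR-181c-3p. The RSL3 group held 3 libraries of cells given 5 µM RSL3 for 24 h, and the DMSO group 3 libraries of cells given the solvent alone. Cells of both groups had first been kept in 10 µM retinoic acid over 96 h in medium with 2% serum, which makes N2a cells extend neurites and adopt a neuron-like state. RSL3 inhibits the lipid peroxide reducing enzyme GPX4 and is used to induce ferroptosis, a cell death driven by iron and lipid peroxidation. N2a is a single tumour line, and no label states that replicates came from separate cultures, so the p-values measure the spread between these libraries, which may be technical.

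The comparison of RSL3 with DMSO libraries gives the levels of the family in neuron-like cells under a ferroptosis inducer. miRNAs are cut from a hairpin precursor into a 5p and a 3p arm, and one strand is loaded into Argonaute to repress mRNAs that pair with its seed, bases 2 to 8. The miR-181 5p strands are abundant in thymocytes and brain; they tune T cell receptor signalling in mice and, in rodent brain cells, repress survival genes of the Bcl2 family and the chaperone gene Hspa5. Mouse work on retina and brain has also tied miR-181a and miR-181b to mitochondrial turnover, and miR-181c has been found in mitochondria of rat heart cells. None of these targets was measured here, since the libraries hold small RNAs.

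The family comes from 6 precursors in 3 pairs (positions of GRCm38, annotation of GENCODE M21). Mir181a-1 (chr1:137966455-137966541) and Mir181b-1 (chr1:137966639-137966718) lie 97 bases apart on the plus strand of chromosome 1, in an intron of the noncoding transcript Gm4258 and overlapping an exon of the lincRNA A430106G13Rik, with an intron of the lincRNA Gm26936 on the other strand. Mir181a-2 (chr2:38852735-38852810) and Mir181b-2 (chr2:38853830-38853918) lie 1019 bases apart on the plus strand of chromosome 2, opposite an intron of Nr6a1, which encodes a nuclear receptor and is read from the minus strand; Mir181b-2 also lies opposite an exon of Gm44144. Mir181c (chr8:84178873-84178961) and Mir181d (chr8:84178716-84178787) lie 85 bases apart on the minus strand of chromosome 8, in an intron of Nanos3, a germ cell gene.

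The 5p strands are shown because they share 1 seed and differ only behind it, which bears on how reads are divided between them. All 7 members had a mature sequence in the RefSeq table of GRCm38.p6, printed 5′ to 3′ with the seed in capitals.
miR-181a-5p: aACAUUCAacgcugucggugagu
miR-181b-5p: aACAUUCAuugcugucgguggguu
miR-181c-5p: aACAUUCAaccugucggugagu
miR-181d-5p: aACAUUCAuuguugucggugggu
The seed ACAUUCA was carried by these 4 names and by no other of the 1679 mature mouse miRNA names in that table. Counted from the 5′ end of miR-181b-5p, miR-181d-5p differs by the single substitution C12U and lacks 1 of the bases at the 3′ end. miR-181c-5p is miR-181a-5p without the base at position 11. Between miR-181a-5p and miR-181d-5p there are 4 substitutions (A9U, C10U, C12U and A21G, counted on miR-181a-5p). How the authors assigned reads that match several of these sequences, or match one of them with an error, is not given in the sources used here, so the split between miR-181b-5p and miR-181d-5p and between miR-181a-5p and miR-181c-5p is uncertain. The recovered reads of each member differed from those of every other entry by more than 1% in at least 1 library, so no member was a duplicate of another entry.

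The 3p strands are shown because they tell the precursor copies apart.
miR-181a-1-3p: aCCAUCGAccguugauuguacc
miR-181a-2-3p: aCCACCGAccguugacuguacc
miR-181c-3p: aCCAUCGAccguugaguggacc
miR-181a-1-3p and miR-181c-3p share the seed CCAUCGA and differ by U16G and U19G, counted on miR-181a-1-3p. miR-181a-2-3p differs from miR-181a-1-3p by U5C and U16C, of which U5C changes the seed. The hairpins of the miR-181a copies, with both mature arms in capitals, show that their 5p arms are identical and that only the 3p arm, the loop and the stem ends differ.
Mir181a-1: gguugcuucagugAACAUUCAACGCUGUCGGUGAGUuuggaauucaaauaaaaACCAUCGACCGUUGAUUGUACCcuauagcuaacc
Mir181a-2: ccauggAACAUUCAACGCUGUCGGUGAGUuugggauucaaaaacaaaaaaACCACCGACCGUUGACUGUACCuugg
The entries miR-181a-5p and miR-181b-5p therefore each pool both genomic copies. The 3p strands of miR-181b-1, miR-181b-2 and miR-181d are not among the listed miRNAs. Sums and shares of 3p signal below therefore cover only the 3p strands that were listed.

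Values, called CPM below, are reads of a miRNA scaled to the library's miRNA reads and to TMM factors between libraries. A read stands for 1 whole mature strand, so levels need no correction for length, although adapter ligation favours some sequences and levels of different miRNAs are compared only roughly. The libraries held 3406276 to 4989380 miRNA reads in the RSL3 group and 4306460 to 6058006 in the DMSO group, and the members had 59 to 3654 reads in each library. All 8 neuronal marker miRNAs set for the check of cell type were listed, with summed levels of 20323 to 26070 CPM in RSL3 and 22086 to 26362 CPM in DMSO libraries. Of 9 blood and immune markers 6 were listed, summing to 139 to 206 CPM in RSL3 and 124 to 155 CPM in DMSO libraries. Their defining member miR-142a-5p was at 1.27 to 2.82 CPM in RSL3 and 1.58 to 2.98 CPM in DMSO libraries, given here because miR-181a is also a lymphocyte miRNA. miR-142a-5p had a log2 fold change of -0.28, and the other 5 listed markers had positive ones. Among these were the lymphocyte miRNAs miR-150-5p, at 3.56 to 6.28 CPM in RSL3 and 1.58 to 4.23 CPM in DMSO libraries (log2 fold change 0.69, limma adjusted p = 0.26), and miR-155-5p, at 4.81 to 7.12 CPM in RSL3 and 2.36 to 4.86 CPM in DMSO libraries (0.54, limma adjusted p = 0.32). None of the 6 passed, and their part in the results below was not tested. The 3 miRNAs set as glial markers summed to 1028 to 1210 CPM in RSL3 and 847 to 948 CPM in DMSO libraries. Most of this was miR-23a-3p, with means of 897 CPM in RSL3 and 685 CPM in DMSO libraries. The next most abundant entry, miR-219a-2-3p, had means of 144 CPM in RSL3 and 139 CPM in DMSO libraries. Of the 6 glial entries, 4 had a positive and 2 a negative log2 fold change. The part of the difference between these sums in the results below was not tested. In a bulk library, fewer cells holding a miRNA and less of it per cell cannot be told apart.

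No member of the family passed the test between RSL3 and DMSO, and the member with the smallest p was miR-181d-5p, which is also the most abundant. Limma, a linear model with variances moderated over all miRNAs, was fitted to log2(CPM + 1) of 666 miRNAs, and p-values were adjusted over all of them by the Benjamini-Hochberg method at 0.05. All 7 members passed the filter on low values. Of these, 0 were called higher and 0 lower, beside 0.601% called higher and 0.150% called lower among all miRNAs tested. At an unadjusted p under 0.05, 0 members were higher and 1 was lower, against 8.86% and 8.41% of all tested. EdgeR and DESeq2 on the recovered reads also called 0 members, beside 0.901% and 8.31% of all miRNAs with an adjusted p in each tool. Their counts of members at an unadjusted p under 0.05 were 1 and 0, against 17.0% and 14.3% of all.

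**Figure D1:**
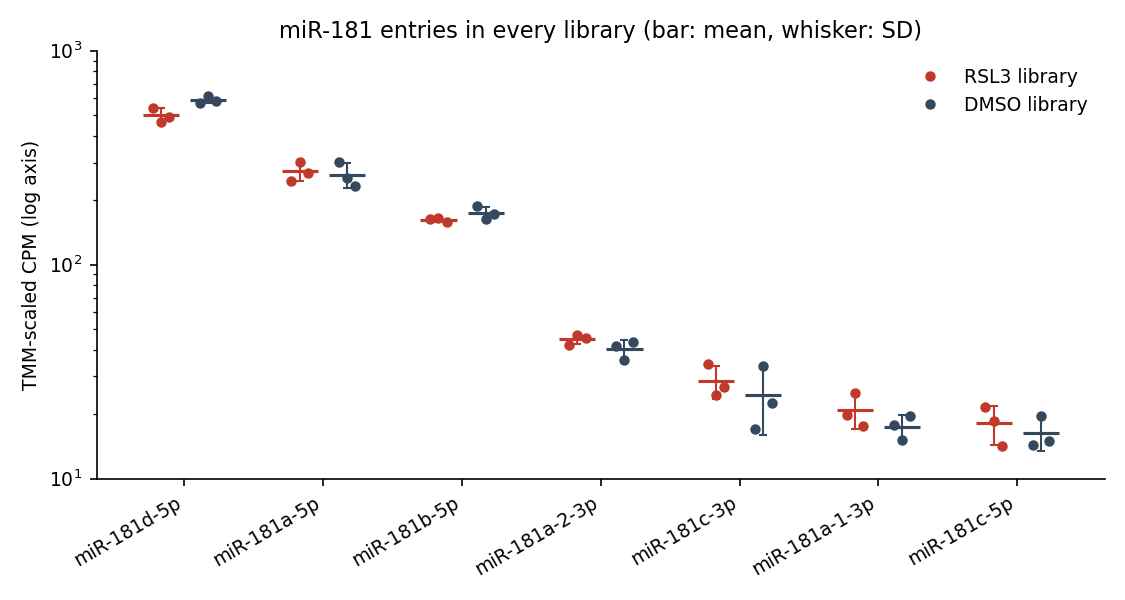
TMM-scaled CPM (log axis) of the 7 miR-181 entries, from the most to the least abundant; each point is a library, bars are means and whiskers SD (n = 3 per group). Only for miR-181d-5p do all RSL3 points (464 to 543 CPM) lie below all DMSO points (573 to 613 CPM).

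Among the 5p strands, which carry the shared seed, miR-181d-5p was at 543, 464 and 492 CPM in RSL3 libraries 1 to 3, against 573, 613 and 582 CPM in DMSO libraries 1 to 3. All RSL3 libraries were lower than all DMSO libraries, with RSL3 library 1 closest to the DMSO range. The means were 499 ± 40.0 CPM in RSL3 and 589 ± 21.0 CPM in DMSO libraries (SD, n = 3 each). The log2 fold change was -0.24 ± 0.11 (SE), a level of 0.846 times that in DMSO with a 95% interval of 0.717 to 0.999. This gave an unadjusted limma p of 0.049 and an adjusted p of 0.28, so the difference did not pass. The unadjusted p ran from 0.019 to 0.15 over the other limma and count settings with all libraries, and from 0.033 without RSL3 library 1 to 0.17 without RSL3 library 2. Of all tested miRNAs 114 had a smaller p. Groups that do not overlap were seen in 1 of the 7 members, on the lower side, and in 12.0% of all tested miRNAs on the lower and 12.3% on the higher side. The spread between replicates, a coefficient of variation of 8.0% in RSL3 and 3.56% in DMSO libraries, exceeded the 2.22% and 1.79% that counting alone gives at these reads.

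miR-181a-5p, the best studied member, was at 247, 302 and 269 CPM in RSL3 libraries and at 302, 254 and 234 CPM in DMSO libraries. The groups overlapped, with the highest library of each group at the same level. Its log2 fold change was 0.05 ± 0.13 (SE, limma adjusted p = 0.85), a ratio of 1.04 with a 95% interval of 0.852 to 1.26. Its sign turned without RSL3 library 2 (-0.02) and without DMSO library 3 (-0.03).

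miR-181b-5p, which is made beside miR-181a at both loci, was at 163, 166 and 159 CPM in RSL3 libraries and at 188, 164 and 172 CPM in DMSO libraries. DMSO library 2 lay within the RSL3 range, so the groups overlapped. The log2 fold change was -0.10 ± 0.12 (SE, limma adjusted p = 0.68; 95% interval of the ratio 0.781 to 1.11).

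miR-181c-5p was the scarcest 5p strand, at 21.6, 18.5 and 14.2 CPM in RSL3 libraries and 14.4, 19.5 and 15.0 CPM in DMSO libraries. The groups overlapped over nearly their whole range. Its log2 fold change was 0.14 ± 0.21 (SE, limma adjusted p = 0.75), with a 95% interval of the ratio of 0.807 to 1.499. It had 59 to 92 reads per library, and its coefficient of variation was 20.4% in RSL3 and 17.2% in DMSO libraries, where counting alone gives 11.8% and 10.8%. The log2 fold change was 0.0072 without RSL3 library 1 and 0.29 without RSL3 library 3.

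The 3p strands, which carry other seeds, were all measured above 10 CPM. miR-181a-2-3p, from the chromosome 2 copy, was at 42.2, 46.8 and 45.5 CPM in RSL3 libraries and 41.8, 35.7 and 43.5 CPM in DMSO libraries. RSL3 library 1 fell inside the DMSO range, and the log2 fold change of 0.15 ± 0.15 (SE) had a limma adjusted p of 0.62. It was 0.07 without DMSO library 2 and 0.21 without DMSO library 3. miR-181a-1-3p, from the chromosome 1 copy, was at 19.8, 25.1 and 17.6 CPM in RSL3 libraries and 17.7, 15.1 and 19.7 CPM in DMSO libraries. Its groups overlapped as well, with a log2 fold change of 0.23 ± 0.19 (SE, limma adjusted p = 0.56) that was 0.10 without RSL3 library 2 and 0.34 without RSL3 library 3. miR-181c-3p, from chromosome 8, was at 34.3, 24.5 and 26.9 CPM in RSL3 libraries and 17.1, 33.7 and 22.6 CPM in DMSO libraries. DMSO library 2 was nearly as high as the highest RSL3 library, and the log2 fold change was 0.25 ± 0.23 (SE, limma adjusted p = 0.61). Without DMSO library 1 it was 0.03 and without DMSO library 2 it was 0.50.

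**Figure D2:**
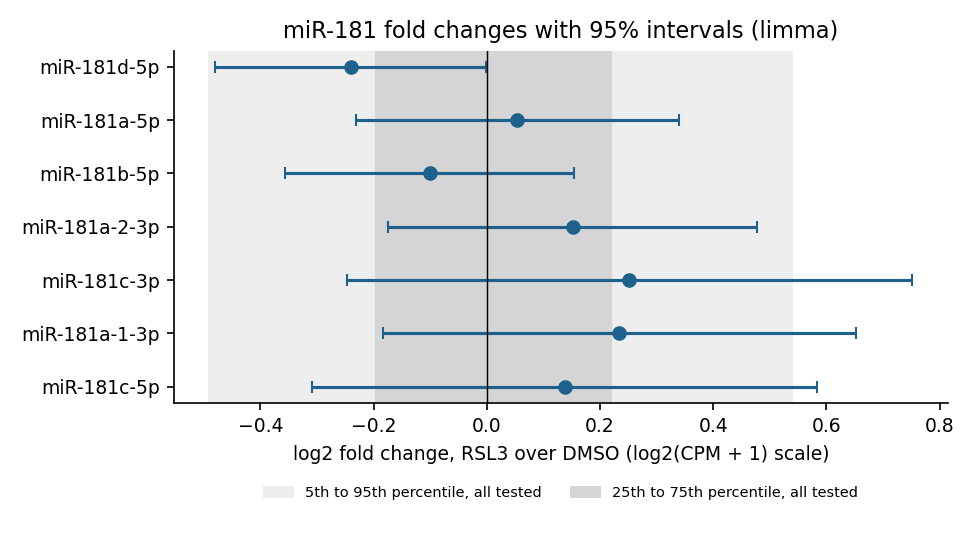
Log2 fold change of each miR-181 entry, RSL3 over DMSO, with its 95% interval from limma (3 libraries per group); the dark band holds the 25th to 75th percentile of all 666 tested miRNAs (-0.20 to 0.22) and the light band the 5th to 95th percentile (-0.49 to 0.54). The interval of miR-181d-5p ends just below 0 and the other 6 include it.

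The fold changes of the family were small in both directions. The 7 log2 fold changes ran from -0.24 to 0.25 with a median of 0.14, against a median of 0.00134 over all tested miRNAs, and their median size without sign was 0.15, against 0.21 over all. The median SE was also lower for the members, at 0.15 against 0.19 over all. For 5 members the 95% interval lay within 1.5-fold in either direction, and for miR-181a-1-3p and miR-181c-3p it reached ratios of 1.57 and 1.68. Of these 5, miR-181c-5p stayed within that bound only just, with an upper end of 1.499. The intervals show how large a difference these libraries leave possible, and a p above the threshold does not show that the levels were equal. Of the 5p strands 2 had a positive and 2 a negative log2 fold change, while the 3 analysed 3p strands were positive, none past the test. Over all tested 3p entries 50.7% were positive and over all 5p entries 47.3%.

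Within the family, the makeup of the shared-seed pool was led by the chromosome 8 strand miR-181d-5p in every library. It held 55.7%, 48.8% and 52.7% of the 5p signal in RSL3 libraries and 53.2%, 58.3% and 58.0% in DMSO libraries. The groups overlapped, since RSL3 library 1 was above DMSO library 1. miR-181a-5p held 25.4%, 31.8% and 28.8% in RSL3 libraries and 28.0%, 24.2% and 23.3% in DMSO libraries, and miR-181b-5p 15.6% to 17.5% over all 6. The share of miR-181c-5p was 1.52% to 2.22% in RSL3 and 1.34% to 1.86% in DMSO libraries, although its precursor lies beside that of miR-181d. miR-181d-5p was 25.1 to 34.5 times miR-181c-5p in RSL3 and 31.4 to 39.7 times in DMSO libraries. With miR-181b-5p, from which it differs by 1 substitution, its ratio was 2.79 to 3.34 in RSL3 and 3.05 to 3.73 in DMSO libraries. These ratios within a library do not depend on the scaling between libraries, and in each the groups overlapped.

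**Figure D3:**
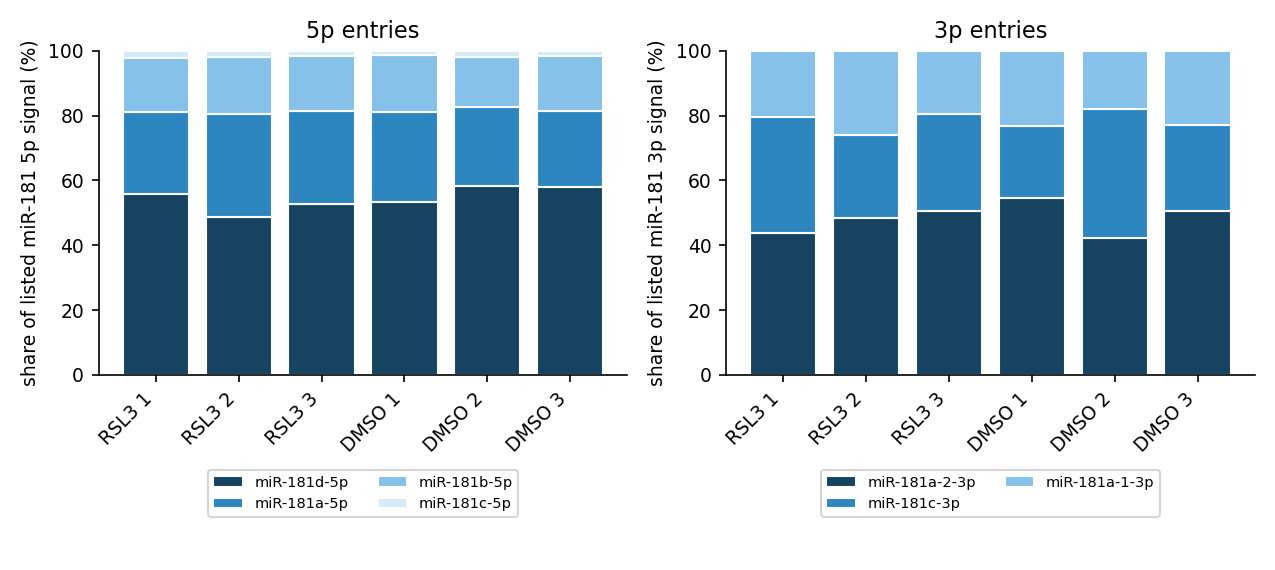
Share of each entry (%) in the listed miR-181 5p signal (left) and 3p signal (right) of each library, RSL3 libraries left of DMSO libraries. miR-181d-5p takes 48.8% to 58.3% of the 5p signal, and miR-181a-2-3p 42.3% to 54.6% of the 3p signal.

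The summed level of the 4 shared-seed strands was 974, 950 and 934 CPM in RSL3 libraries and 1076, 1051 and 1003 CPM in DMSO libraries. In these TMM-scaled values the groups did not overlap, and the means were 953 ± 20.2 CPM in RSL3 and 1043 ± 37.0 CPM in DMSO libraries (SD, n = 3 each). Of the 4 strands only miR-181d-5p was itself without overlap, with means of 499 CPM in RSL3 and 589 CPM in DMSO libraries. The other strands overlapped, with differences in both directions. The summed level of the 3 listed 3p strands lay the other way, at 96.3, 96.3 and 90.0 CPM in RSL3 and 76.6, 84.6 and 85.8 CPM in DMSO libraries, again without overlap. Taken singly, each of the 3 listed 3p strands overlapped between the groups. Among all tested miRNAs, 12.0% were without overlap on the lower and 12.3% on the higher side. These shares are for single miRNAs, and no such share was formed for sums of several entries. Both sums are given as descriptions without a test. The family as a whole held 0.0979% to 0.107% of the listed miRNA signal in RSL3 and 0.105% to 0.121% in DMSO libraries. In this share, which does not depend on the TMM factors, the groups overlapped. The same held for the summed 5p level as a part of the listed signal. It was 974 of 997482 CPM in RSL3 library 1 and 1003 of 1033020 CPM in DMSO library 3, a larger part in the RSL3 library. Between the copies of miR-181a, the chromosome 2 product miR-181a-2-3p was 1.86 to 2.58 times the chromosome 1 product miR-181a-1-3p in RSL3 libraries and 2.21 to 2.37 times in DMSO libraries. The larger 3p product came from the same copy in all 6 libraries, while the copy of origin of the 5p strand cannot be read from its sequence.

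The balance of the arms was compared between RSL3 and DMSO libraries. The ratio of 5p to 3p could be formed for miR-181a-1, miR-181a-2 and miR-181c, and limma was fitted over 219 such pairs of all miRNAs. Of the 3 ratios 0 were called, beside 2.74% of all pairs, and 0 reached an unadjusted p under 0.05, beside 20.5%. The log2 ratio of miR-181a-1 was 3.58, 3.54 and 3.86 in RSL3 libraries and 4.02, 3.99 and 3.51 in DMSO libraries, a change of -0.18 ± 0.21 (SE, limma adjusted p = 0.69). DMSO library 3 was the lowest of all 6, so the groups overlapped. For miR-181a-2 it was 2.52, 2.66 and 2.54 in RSL3 and 2.82, 2.80 and 2.40 in DMSO libraries, a change of -0.10 ± 0.19 (SE, limma adjusted p = 0.83). Without DMSO library 1 the changes were -0.09 for miR-181a-1 and -0.02 for miR-181a-2, and without DMSO library 3 they were -0.35 and -0.23. Both of these ratios use the same miR-181a-5p value, set against each 3p strand in turn, and so are not independent. Since that value pools both copies, neither ratio is the arm balance of 1 copy alone.

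For miR-181a, whose 5p entry pools both copies, the 5p level was compared with both 3p strands together. It was 3.99 to 4.26 times their sum in RSL3 and 3.70 to 5.07 times in DMSO libraries. For miR-181c, the listed 3p strand was the more abundant one in every library. The log2 ratio of 5p to 3p was -0.64, -0.38 and -0.87 in RSL3 libraries and -0.23, -0.76 and -0.57 in DMSO libraries. Its change was -0.11 ± 0.21 (SE, limma adjusted p = 0.83) and turned positive without RSL3 library 3 (0.0043) and without DMSO library 1 (0.03). As levels, miR-181c-3p was 1.32 to 1.89 times miR-181c-5p in RSL3 and 1.18 to 1.73 times in DMSO libraries. Levels of different strands are compared only roughly, and the split of reads between miR-181a-5p and miR-181c-5p is uncertain. Which arm of miR-181c is the larger therefore holds for the listed values only.

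**Figure D4:**
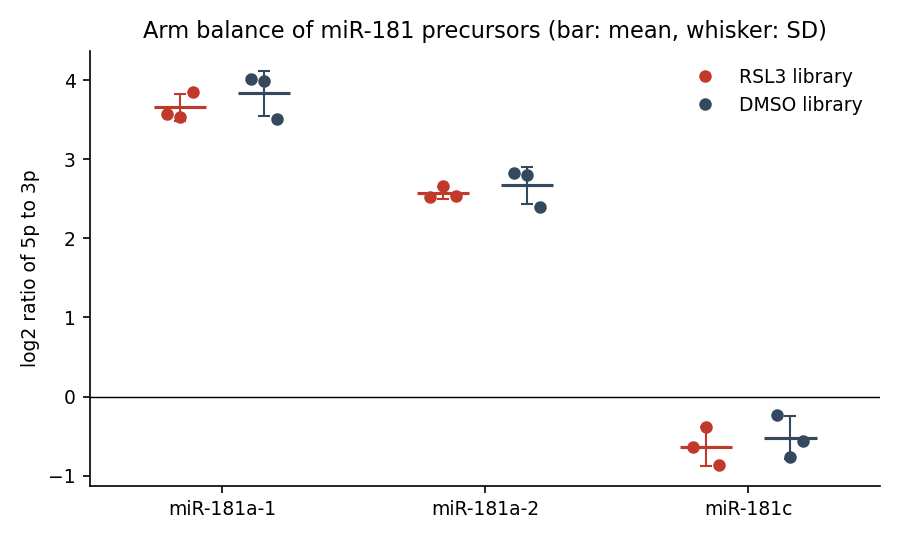
Log2 ratio of the 5p to the 3p strand for the miR-181 precursors with both arms listed; points are libraries, bars means and whiskers SD (n = 3 per group). The miR-181a ratios lie above 0 and the miR-181c ratio below 0 in all libraries, and RSL3 and DMSO points overlap for each. Both miR-181a ratios use the miR-181a-5p entry that pools the copies, and the split of reads between miR-181a-5p and miR-181c-5p is uncertain.

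Profiles over the 6 libraries were compared with that of miR-181d-5p, the most abundant member. Likeness was the mean absolute difference of log2(CPM + 1) after centring each miRNA on its own mean, among 410 other miRNAs with a mean of at least 10 CPM. The 5 closest were miR-29a-3p (0.02), miR-345-3p (0.02), miR-423-5p (0.04), miR-199a-5p (0.04) and miR-296-3p. In mouse neurons miR-29 is known to repress BH3-only death genes. The closest, miR-29a-3p, was at 1920, 1600 and 1672 CPM in RSL3 and 1912, 2146 and 1993 CPM in DMSO libraries, so its groups overlapped. The 5 had log2 fold changes of -0.25 to -0.16 and limma adjusted p-values of 0.31 to 0.50, so none passed. Likeness took in the difference between the groups, so fold changes near that of miR-181d-5p follow from how these 5 were chosen. The other members were further away: the closest of them, miR-181b-5p, had a difference of 0.11, and 69 miRNAs outside the family were closer to miR-181d-5p than it was. These profiles share libraries and scaling, and the likeness is a description.

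**Figure D5:**
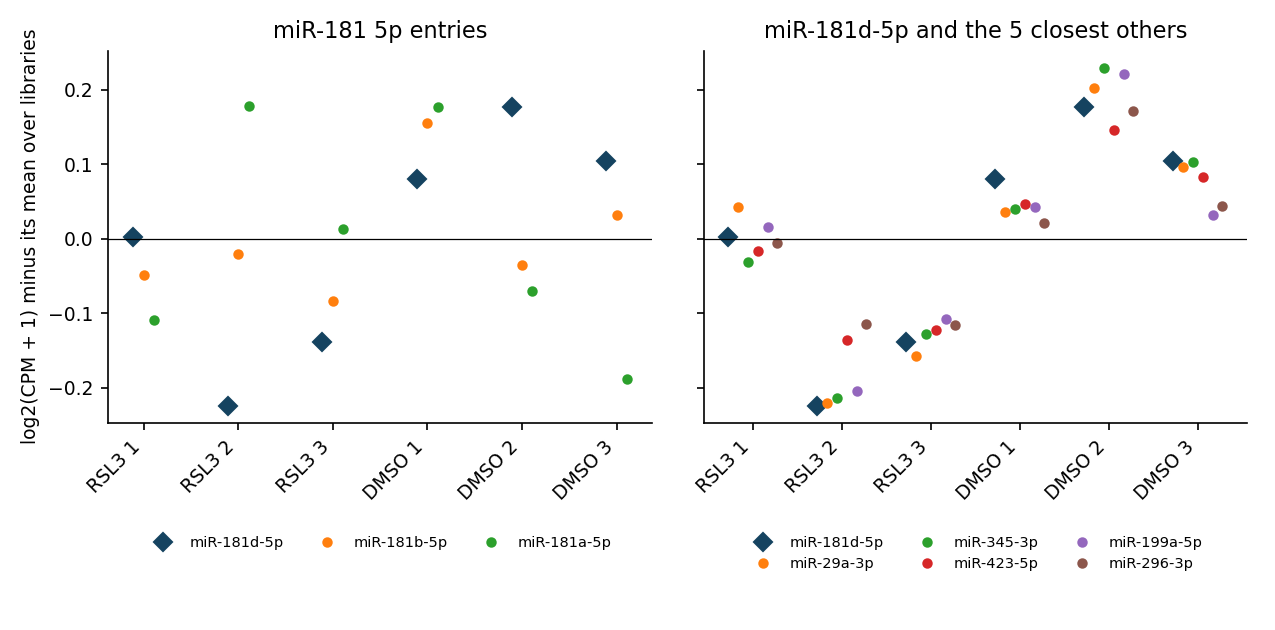
Log2(CPM + 1) of each miRNA minus its own mean over the 6 libraries, for the 3 most abundant miR-181 strands (left) and for miR-181d-5p with the 5 closest other miRNAs (right); points at a library are shifted sideways for clarity. miR-181d-5p is lowest in RSL3 library 2, where miR-181a-5p is as high as in DMSO library 1.

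Other miRNAs with roles near those of the family were taken as lists. Their counts stand beside the shares over all miRNAs tested: unadjusted limma p-values under 0.05 were seen for 8.86% on the higher and 8.41% on the lower side, and 8.31% of the 433 with an adjusted p were called in DESeq2. Among 37 entries of miRNAs reported to act on mitochondrial genes, 0 passed in limma and edgeR and 1 in DESeq2. Without adjustment, limma had 3 of them higher and 4 lower, near those shares, and the median log2 fold change was -0.06, against 0.00134 over all. The DESeq2 call was miR-30c-2-3p, at 68.9 ± 3.96 CPM in RSL3 and 94.8 ± 8.92 CPM in DMSO libraries (DESeq2 adjusted p = 0.046, limma adjusted p = 0.095), which is named because it was called. The most abundant of them were miR-7a-5p, known from neurons and endocrine cells (181728 ± 26833 CPM in RSL3 and 225023 ± 38694 CPM in DMSO libraries, limma adjusted p = 0.41), and miR-27b-3p (log2 fold change 0.05, limma adjusted p = 0.86). Among 34 entries of miRNAs reported to bear on neuronal survival, 0 passed in limma and edgeR and 1 in DESeq2, with 5 higher and 1 lower unadjusted in limma and a median of 0.08. The DESeq2 call, named for the same reason, was miR-24-1-5p, at 48.2 ± 5.41 CPM in RSL3 and 33.3 ± 2.11 CPM in DMSO libraries (DESeq2 adjusted p = 0.046, limma adjusted p = 0.095). They were led by miR-21a-5p, an inhibitor of apoptosis (39494 ± 3760 CPM in RSL3 and 32047 ± 2817 CPM in DMSO libraries, limma adjusted p = 0.29). Next came miR-9-5p, a miRNA of neural progenitors (4259 ± 962 CPM in RSL3 and 3240 ± 723 CPM in DMSO libraries, limma adjusted p = 0.27). The neuronal markers set for the check of cell type also include miR-9. Of 32 neuron-enriched entries 0 passed in any of the 3 tools, with 3 higher and 1 lower unadjusted in limma and a median of 0.02. They were led by miR-7a-5p and miR-7b-5p (log2 fold change -0.27, limma adjusted p = 0.39). The blood and immune list, led by the red cell miRNAs miR-451a (0.08) and miR-486b-5p (0.23), had 0 of 6 called in any tool and 1 higher unadjusted in limma, with a median of 0.25. The glial list had 0 of 6 called in any tool and 1 higher unadjusted in limma, with a median of 0.12. It was led by miR-23a-3p (897 ± 115 CPM in RSL3 and 685 ± 61.0 CPM in DMSO libraries, limma adjusted p = 0.11) and the oligodendrocyte miRNA miR-219a-2-3p (0.05).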

How the data were processed

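Small RNA from 3 RSL3 and 3 DMSO libraries was size-selected for 15 to 35 nt and read over 50 cycles, per the labels' protocols. The submitters' processing notes name cutadapt, Bowtie, edgeR and GRCm38, without order or settings. For each mature miRNA the authors deposited a scaled read signal under the name CPM. All values (100%) were whole multiples of 1 step per library within 0.01, 1 read being worth 0.157 to 0.314, and the whole reads so recovered, scaled by edgeR's TMM factors (0.936 to 1.05), gave values equal to the deposited ones. Plain CPM had been assumed, and the log-scale test was kept.

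Limma 3.58.1 (R 4.3.3) was fitted with a variance trend to log2(CPM + 1) of the 666 miRNAs that reached 1 CPM in at least 3 libraries (19 were set aside). For arm ratios, an unnumbered strand was paired with each numbered partner. All tests were two-sided. EdgeR 4.0.16 and DESeq2 1.42.0 were run on the recovered reads, and DESeq2 gave 433 miRNAs an adjusted p. Scripts were tested on simulated data. All members, the 5 profiles closest to the most abundant member, and from each list the members called in limma (0) and the 2 most abundant were named; the list members called in DESeq2 alone were named after their values were seen. The members and lists were chosen with earlier results of these data known.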

Additional observations from a re-analysis of the deposited data

How the results depend on the processing

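The counts of members called (0 higher, 0 lower) and of arm ratios called (0) stayed at 0 in each setting run: pseudocounts of 0.5 and 5, a filter at 10 CPM or none, quantile normalization, centring on the median, scaling that leaves out the 5 most abundant miRNAs, limma without or with a robust trend, the replicate block, edgeR and DESeq2 (members only), and each library left out (range 0 to 0). The unadjusted p of miR-181d-5p was 0.13 with median centring, 0.065 with quantile normalization, 0.11 without a trend and 0.086 in DESeq2. Its log2 fold change ran from -0.29 to -0.20 over the settings with all libraries and from -0.30 to -0.19 when a library was left out. With a library left out, miR-181a-5p ran from -0.03 to 0.16 (-0.02 without RSL3 library 2, -0.0264 without DMSO library 3) and the miR-181c arm ratio change from -0.24 to 0.03 (0.0043 without RSL3 library 3, 0.0295 without DMSO library 1). No other member or ratio changed sign in any setting, but their sizes moved: with a library left out, miR-181c-3p ran from 0.03 to 0.50, miR-181c-5p from 0.0072 to 0.29, miR-181a-1-3p from 0.10 to 0.34, miR-181a-2-3p from 0.07 to 0.21, miR-181b-5p from -0.14 to -0.05, and the arm ratio changes of miR-181a-1 from -0.35 to -0.09 and of miR-181a-2 from -0.23 to -0.02. The difference in summed 5p level, -90.6 CPM as reported, was -127.6 CPM after scaling that leaves out the 5 most abundant miRNAs, and the cause was not tested. With that scaling the median log2 fold change over all tested miRNAs moved as well, from 0.00134 to -0.05. With 1 library left out the difference in summed 5p level was -110.7 to -74.2 CPM. With the replicate block the log2 fold change of miR-181d-5p stayed at -0.24 with an unadjusted p of 0.15 and a limma adjusted p of 0.61. Over all miRNAs, limma called 1 higher and 0 lower with the block, and 4 higher and 1 lower without it. Deviations of same-numbered libraries from their group means correlated at -0.35, -0.33 and -0.19 over 666 miRNAs, and 0 RSL3 libraries correlated best with their own number, so the numbers were not taken as pairs. The scarcest strand, miR-181c-5p, had 59 to 92 reads per library.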
